A study of Homo sapiens
Mus musculus and Homo sapiens with 12 samples.

Results

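Human gene expression was compared between heterokaryons at day 3 and at day 1 after fusion. A heterokaryon is a fused cell with the cytoplasm of its parents in common and their nuclei kept apart; here D3 mouse embryonic stem cells were fused with MRC5 cells, a fibroblast line from human fetal lung. The heterokaryons are transient and were not propagated as a line, and sorted heterokaryons gave the polyA RNA that was sequenced. The comparison used 4 of the 12 samples of the series, 2 at day 3 and 2 at day 1, chosen by their titles. Both days carry the same fusion of the same 2 cell lines, and the labels name no added drug or transgene. Day 2 heterokaryons and an unfused co-culture of the same cells, with 2 libraries each, are given beside them; the co-culture libraries hold mouse RNA as well. Separate cultures are not stated for the replicates, so p-values cover the spread between these libraries alone, which may be technical. In sorted bulk samples, fewer human nuclei that transcribe a gene and less RNA per nucleus cannot be told apart. The heterokaryon libraries hold mouse RNA too. The part of mouse reads that match human transcripts, or of a shift in the share of mouse RNA between days, was not tested.

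A stem cell partner can reactivate silent genes in the nucleus of a differentiated cell without cell division, which is why such fusions are used to study reprogramming. Fibroblasts are the main producers of interstitial matrix, and TGF beta, activin and serum factors drive their contractile and matrix genes. Embryonic stem cells cycle fast with short gap phases, whereas confluent fibroblasts largely leave the cycle. The series describes its aim as following reprogramming over a heterokaryon time course, and the comparison of day 3 with day 1 asks how human transcripts moved within it.

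The members are human genes whose coding RefSeq transcripts all lie in the part of the accession order that all 4 tables cover. They number 3706 of 10109 human genes with a listed coding transcript in a mixed-species library. Values are per transcript length and library, called RPKM here, and the coding transcripts of a gene were added up. After 135 genes with a transcript that could not be read were set aside, 3571 remained, of which 2567 reached 1 RPKM in at least 2 of the 4 libraries and were tested. Read totals are not in the tables, so depth is unknown; of the 3706 genes, 2667 to 3247 were listed above 0 per library, more at day 3 than at day 1. Replicates correlated at r = 0.870 at day 1 and 0.888 at day 3 across genes, against 0.842 to 0.859 between libraries of different days. The mean absolute difference between replicates was 0.896 at day 1 and 0.821 at day 3 on the log2 scale. Day 1 replicate 1 stood apart by transcript length, with a Spearman's rho across genes of -0.265 between length and its deviation from the 4-library mean: its shorter transcripts were higher.

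Most fully covered fibroblast markers were high on both days. Of 14 fibroblast markers 7 were fully covered, and 6 of these were above 0 in all 4 libraries; LUM, a matrix proteoglycan, was not. Their summed level was 7013 and 7714 RPKM at day 1 and 6675 and 6839 RPKM at day 3. Of 11 markers of pluripotent cells only 3 were fully covered: SOX2 was listed at 0 in all 4 libraries, and the sum of the 3 was at most 0.608 RPKM. POU5F1, the OCT4 gene, was covered in part. Its covered transcripts read 26.9 and 27.4 RPKM at day 1, 56.9 and 48.6 at day 2, then 27.3 and 18.7 at day 3, and 0 and 0.0847 in the co-culture, so the level at day 3 was not above that at day 1. PODXL, podocalyxin, a pluripotency marker covered in part, read 129 and 120 RPKM at day 1 and 9.53 and 37.9 at day 3. NANOG, SALL4, DPPA4 and ZFP42, also covered in part, read 0 in all 4 libraries. The covered part of DCN, decorin, a fibroblast proteoglycan, read 69.5 and 22.7 RPKM at day 1, 9.20 and 17.9 at day 2 and 0 in both day 3 libraries, against 52.8 and 48.4 in the co-culture. The other fibroblast markers covered in part did not fall in this way. COL6A2, COL6A3 and S100A4 overlapped between day 1 and day 3, and THY1, PDGFRA and FN1 read 0 in all 4 libraries.

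Between day 1 and day 3, 17 of 2567 genes passed a Benjamini-Hochberg adjusted p of 0.05 in limma, which is 0.662% of the genes tested. The 10 genes that rose (0.390%) were PLPP3, TPM1, PTX3, INHBA, THBS1, PAPPA, SQSTM1, DPYSL2, EXT1 and TGFBI, 5 of which encode secreted or matrix proteins. The 7 that fell (0.273%) are cell cycle genes with the exception of PLAAT4. The shares of secreted, matrix and cell cycle genes among all genes tested were not counted, so these counts are description only. All 17 shared 1 adjusted p, 0.046, and an unadjusted p under 0.05 was reached by 504 genes (19.6%), 255 higher (9.93%) and 249 lower (9.70%). The groups did not overlap for 524 genes with both day 3 libraries higher (20.4%) and 562 with both lower (21.9%). Some genes passed the filter through 1 day alone, with both libraries of the other day under 1 RPKM, and so had to differ: 92 through day 3 and 35 through day 1. Over the other 2440 genes, called measured on both days here, the shares without overlap were 17.7% higher and 21.6% lower. The median log2 difference over all genes tested was -0.02. Scaling by the upper quartile moved this median to 0.32 and the calls to 66, of which 55 were higher and 11 lower, so the share of higher among called genes depends on scaling. No gene was called when only the 4 libraries compared gave the estimate of spread (limma; smallest adjusted p = 0.273, 307 genes at an unadjusted p under 0.05). The count was also 0 without day 1 replicate 1 and 2 without day 1 replicate 2, against 18 and 36 without day 3 replicate 1 and 2.

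**Figure D1:**
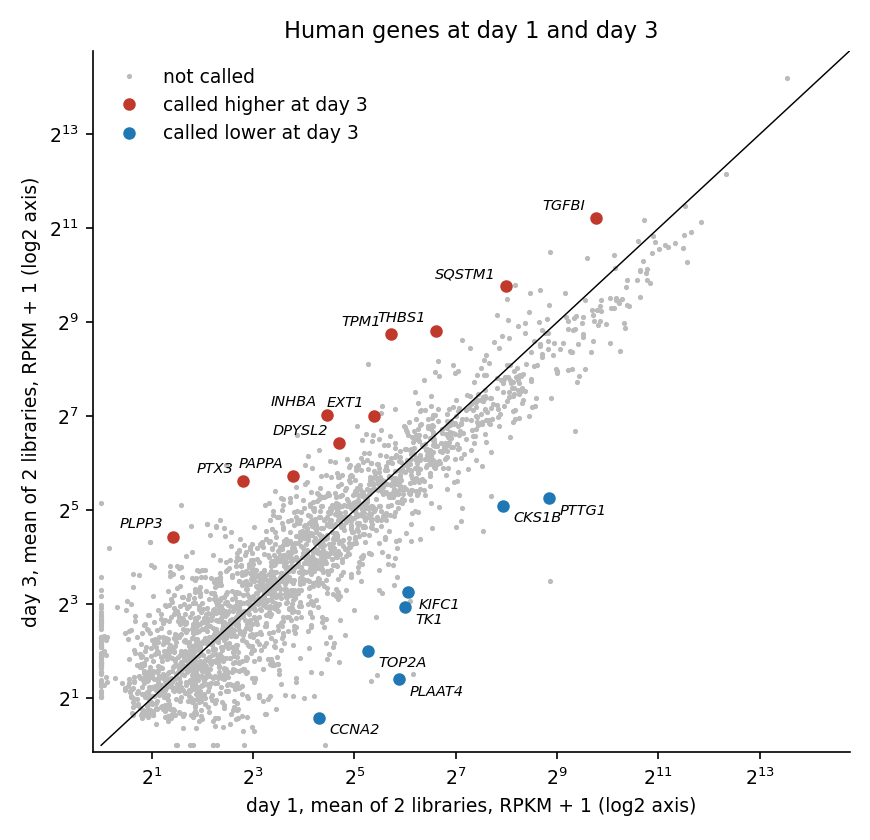
Mean level of each of 2567 human genes at day 1 (x axis) and day 3 (y axis), RPKM + 1 on log2 axes, mean of 2 libraries; the line marks equal levels. The 10 called higher and the 7 called lower at day 3 are named.

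The mitosis and G2 list had the lowest median of the gene lists examined. All 16 measured genes of this list were lower in both day 3 libraries than in either day 1 library, against 21.9% of all genes. Their median log2 difference was -2.39, and 3 of them passed the test, where 0.273% of all genes did. The summed level of the 16 was 1373 and 1009 RPKM at day 1 and 149 and 189 RPKM at day 3. With upper quartile scaling 15 of the 16 kept this order, against 11.1% of all genes, and with 1 of the 4 libraries left out the median stayed between -2.88 and -2.32.

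TOP2A, the topoisomerase that untangles chromosomes before they separate, read 44.1 and 30.8 RPKM at day 1 and 2.80 and 3.27 at day 3. It fell by 3.23 ± 0.48 (SE) on the log2 scale of the value plus 1, with day 2 between at 11.8 and 15.5. The co-culture, at 1.49 and 1.71 RPKM, lay below both days. CKS1B, a small partner of cyclin-dependent kinases, read 301 and 189 RPKM at day 1 and 28.8 and 37.9 at day 3, a fall of 2.81 ± 0.42 with no overlap. PTTG1, securin, which blocks the separation of sister chromatids until anaphase, read 600.3 and 319 RPKM at day 1 and 37.4 and 37.0 at day 3. It fell by 3.52 ± 0.54; PTTG1 and CKS1B have near-identical copies in the genome, so their values are uncertain.

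KIFC1, a motor that gathers spindle poles, is not on the list and also fell, from 69.6 and 61.9 RPKM to 8.87 and 8.27, by 2.80 ± 0.38. AURKB, the kinase that corrects chromosome attachment, read 102 and 39.2 RPKM at day 1 but was listed at 0 and at 3.74 at day 3. Its adjusted p was 0.0533 in limma and it is given as values only. MKI67, the standard marker of cycling cells, was named after its values were seen. It read 11.9 and 38.2 RPKM at day 1, 11.7 and 12.7 at day 2, then 2.36 and 2.45 at day 3 and 1.99 and 2.77 in the co-culture, with an adjusted p of 0.0778 in limma. The replicates at day 1 differed widely for MKI67, and one of them was no higher than a day 2 library.

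The list of DNA replication and nucleotide supply was lower as well but more mixed. Of its 20 genes measured on both days 10 were lower without overlap and 3 were higher, against 21.6% and 17.7% of all such genes, with a median log2 difference of -0.70. Of all 21 tested, 2 passed the test as lower, against 0.273% of all genes. With upper quartile scaling 8 of the 21 were lower and 3 higher without overlap, against 11.1% and 32.1% of all genes. CCNA2, cyclin A2, which drives S phase and the entry into mitosis, read 23.2 and 14.4 RPKM at day 1 and 0.140 and 0.869 at day 3. It fell by 3.73 ± 0.58; it passed the filter through day 1 alone, lies in the lower 50% of abundance, was at 2.90 and 4.75 RPKM at day 2 and was listed at 0 in both co-culture libraries. TK1, thymidine kinase, whose transcript follows S phase, read 62.3 and 63.9 RPKM at day 1, 23.6 and 23.8 at day 2, then 3.23 and 10.2 at day 3, a fall of 3.22 ± 0.55. MCM2, part of the helicase that opens replication origins, read 31.0 and 37.1 RPKM against 7.88 and 12.9, without passing the test (adjusted p = 0.115 in limma). CCND2, cyclin D2, went the other way, at 1.81 and 2.0 RPKM at day 1 and 11.8 and 13.5 at day 3, with an adjusted p of 0.0706 in limma. The 2 days did not overlap for either gene.

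Chromatin regulator genes differed in both directions, none past the test. Of 20 measured on both days 7 were lower and 5 higher without overlap, against 21.6% and 17.7% of all such genes, with a median log2 difference of -0.11. EP300, a histone acetyltransferase, read 6.94 and 11.2 RPKM at day 1 and 31.2 and 22.1 at day 3 (adjusted p = 0.109 in limma). KDM6B, a histone demethylase, read 7.86 and 9.24 RPKM against 18.5 and 21.3, and SMARCE1, a subunit of the SWI/SNF remodeller, 5.47 and 26.2 against 54.1 and 41.4. HMGB2, a chromatin protein abundant in dividing cells, read 140 and 135 RPKM at day 1 and 29.7 and 23.4 at day 3. H2AX, a histone variant that marks broken DNA, read 65.8 and 69.4 RPKM at day 1 and 10.8 and 4.04 at day 3, and H2AZ1, another variant, read 137 and 135 against 68.4 and 68.3. Of 6 measured histone genes 4 were lower without overlap, against 21.9% of all genes, and their median log2 difference was -0.86. PTMA, which encodes a small acidic chromatin protein and has processed copies in the genome, read 1657 and 1518 RPKM at day 1 and 665 and 831 at day 3. HNRNPL, a splicing regulator, read 326 and 278 RPKM against 145 and 103. The adjusted p of HMGB2, H2AX, H2AZ1, PTMA and HNRNPL lay between 0.0512 and 0.103 in limma.

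**Figure D2:**
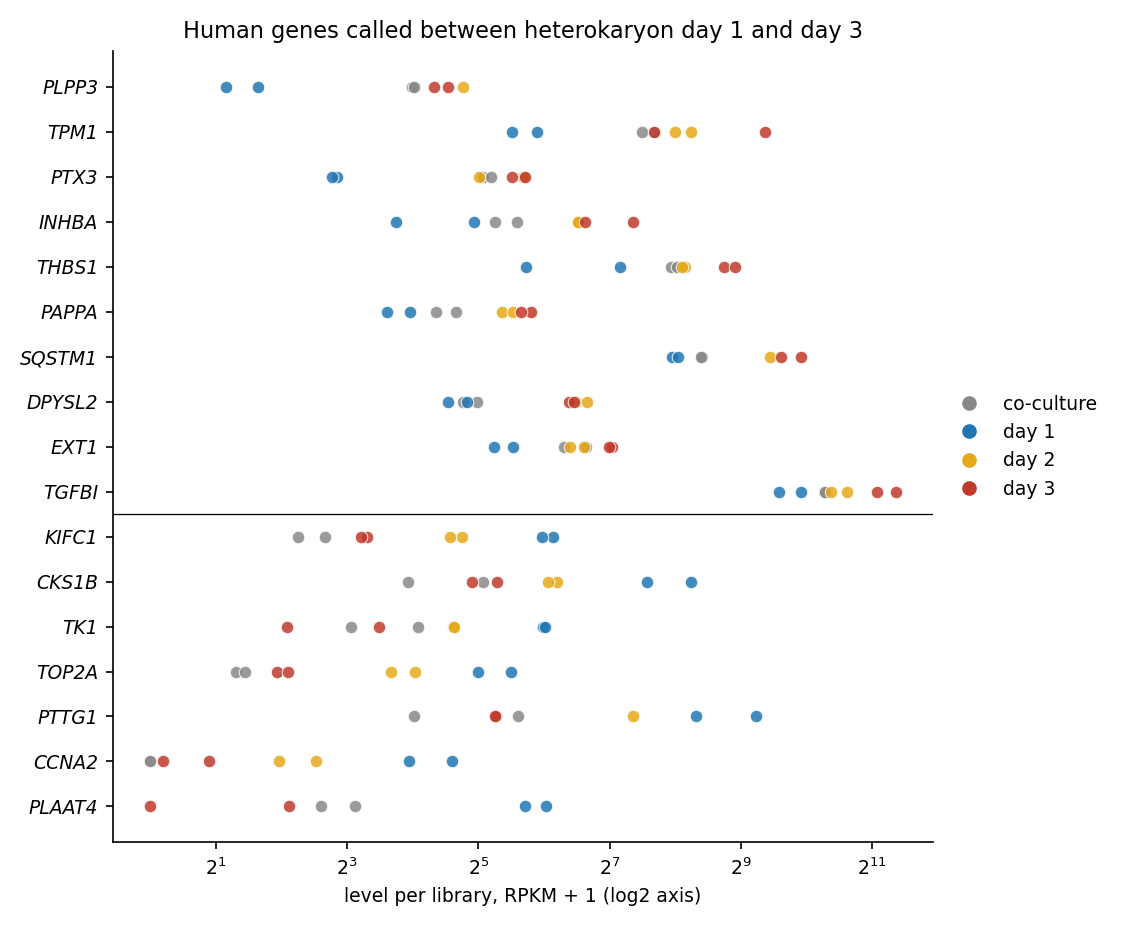
Level of each called gene in each library (x axis, RPKM + 1, log2 axis); each point is 1 library, coloured by group, and uncovered libraries are missing. Genes above the line were called higher at day 3 and those below it lower; for the lower genes with day 2 points, these lie between day 1 and day 3.

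The genes that rose included 2 of the 18 measured members of the TGF beta and BMP list, against 0.390% of all genes. TGFBI, a matrix protein induced by TGF beta, read 767 and 969 RPKM at day 1 and 2631 and 2151 at day 3, one of the 8 highest levels among the genes tested at that day. It rose by 1.46 ± 0.22 on the log2 scale, with day 2 at 1573 and 1319 and the co-culture at 1236 and 1241. INHBA, the subunit of activin A, read 12.3 and 29.6 RPKM at day 1 and 97.5 and 163 at day 3, a rise of 2.65 ± 0.44. Both day 3 libraries lay above the co-culture (37.0 and 47.4 RPKM) and day 1 lay below it.

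ACVRL1, a receptor of the same family, read 6.11 and 2.59 RPKM at day 1 and 22.7 and 24.7 at day 3 (adjusted p = 0.0611 in limma). ID2, an inhibitor of helix-loop-helix factors that BMP induces, was listed at 0 in both day 1 libraries and read 4.05 and 5.77 RPKM at day 3, below the co-culture at 12.9 and 18.4. ID2 passed the filter through day 3 alone. ID3, on the same list, went the other way without overlap, at 145 and 183 RPKM against 59.9 and 112. Of the 17 members other than ID2, 7 were higher without overlap and 1, ID3, was lower, against 17.7% and 21.6% of all genes measured on both days. Their median log2 difference was 0.40, and with ID2 it was 0.73.

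Among contractile and cytoskeletal genes, 1 of 14 measured members of the muscle filament and contractile list passed the test. It was higher, as were 0.390% of all genes. TPM1, a tropomyosin that stabilises actin filaments, read 58.6 and 44.8 RPKM at day 1 and 657 and 204 at day 3. It rose by 2.81 ± 0.48; the 2 day 3 libraries differed by more than 3-fold, and 7 of its transcripts were listed. MYH9, nonmuscle myosin, read 236 and 284 RPKM against 546 and 520 (adjusted p = 0.0695 in limma). TAGLN, an actin-binding protein of contractile cells, read 574 and 350 RPKM against 1963 and 929, and ACTA2, smooth muscle actin, 92.1 and 107 against 373 and 202. MYL4, a myosin light chain, passed the filter through day 3 alone. Of the 13 other genes 9 were higher without overlap and 2 were lower, against 17.7% and 21.6% of all genes measured on both days, with a median log2 difference of 0.94. The levels of TPM1, TAGLN and ACTA2 were higher in replicate 1 than in replicate 2 at day 3. ZYX, zyxin, which sits where stress fibres meet the membrane, read 166 and 144 RPKM at day 1 and 331 and 371 at day 3 without passing the test (adjusted p = 0.0611 in limma).

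In the fibroblast matrix list 1 gene rose. THBS1, thrombospondin 1, a matricellular protein that can activate latent TGF beta, read 52.2 and 141 RPKM at day 1, 284 and 273 at day 2, then 426 and 478 at day 3. It rose by 2.38 ± 0.40 and was the only called gene of the 25 tested, where 0.390% of all genes were called higher. COL1A1, the main chain of type I collagen, read 2897 and 3000.4 RPKM at day 1 and 2980 and 2702 at day 3, a log2 difference of -0.06 ± 0.19 with overlapping days. Day 2 lay lower for COL1A1, at 1576 and 1771 RPKM, so its means did not run in 1 direction. COL5A1, a collagen that regulates fibril width, read 41.2 and 38.9 RPKM against 109 and 84.0 (adjusted p = 0.0776 in limma). TNC, of the same list, read 68.6 and 96.5 RPKM against 280 and 159 (adjusted p = 0.0921 in limma). PCOLCE, which helps to trim procollagen, read 361 and 273 RPKM against 107 and 202.

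Of the 24 matrix genes measured on both days 6 were higher and 6 lower without overlap, near the 17.7% and 21.6% of all such genes. The median log2 difference of the 25 tested was -0.06. Relative to the median of all genes it was -0.03, against 0.03 with upper quartile scaling and 0.21 with quantile normalization. COL4A1 and COL4A2, the collagen chains of basement membranes, read 89.7 and 189 and 245 and 237 RPKM at day 1. At day 3 COL4A1 read 455 and 329 RPKM and COL4A2 428 and 406. No basement membrane gene passed the test, and 4 of 9 were higher and none lower without overlap, against 20.4% and 21.9% of all genes. Among proteases, PLAU, the urokinase that activates plasmin, read 399 and 408 RPKM at day 1 and 852 and 801 at day 3 (adjusted p = 0.0611 in limma). MMP1, interstitial collagenase, read 168 and 98.3 RPKM against 30.3 and 47.6, and 371 and 296 in the co-culture.

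The called genes that rose also included an enzyme of signalling lipids, a protease of growth factor carriers and an enzyme of heparan sulfate. PLPP3, a membrane enzyme that degrades lysophosphatidic acid, read 2.13 and 1.23 RPKM at day 1 and 22.3 and 19.0 at day 3, a rise of 3.03 ± 0.46 and the largest among the called genes. PAPPA, a secreted protease that frees insulin-like growth factors from their binding proteins, read 11.2 and 14.6 RPKM against 55.0 and 49.2, a rise of 1.94 ± 0.33 to above the co-culture (19.5 and 24.4). IGFBP3, a binding protein of those factors, read 8.91 and 18.2 RPKM against 61.1 and 130 without passing the test (adjusted p = 0.0611 in limma). EXT1, a Golgi enzyme that builds heparan sulfate chains, rose by 1.63 ± 0.27, from 36.6 and 45.2 RPKM to 130 and 126.

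A regulator of microtubules and an autophagy receptor rose as well. DPYSL2, a regulator of microtubule assembly, read 22.3 and 27.3 RPKM at day 1, 88.8 and 100 at day 2, then 82.6 and 87.2 at day 3. It rose by 1.74 ± 0.28 and was the only one of the 13 called genes covered at day 2 whose day 2 mean did not lie between the other days. For 12 of the 13 it did (92.3%), and for 39.4% of all genes tested with day 2 covered. The share was 55.7% of such genes with both day 3 libraries higher than both day 1 libraries, and 60.3% of those with both lower. Both days enter this description, and it is not a test. SQSTM1, p62, which delivers ubiquitinated cargo to autophagosomes, read 245 and 262 RPKM at day 1 and 777 and 962 at day 3. It rose by 1.77 ± 0.22 and was at 337 and 335 RPKM in the co-culture. SQSTM1 was the only called gene of 34 in the lysosome and autophagy list, where 0.390% of all genes were called higher.

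In the list of NFkB targets, chemokines and inflammation 1 gene rose. PTX3, a secreted pattern recognition protein induced by interleukin 1 and TNF, read 6.21 and 5.82 RPKM at day 1, 50.2 and 31.4 at day 2, then 51.1 and 44.9 at day 3. It rose by 2.80 ± 0.36 and was the only one of the list's 20 measured genes to pass the test. Of all genes 0.390% passed as higher. CXCL1, a neutrophil chemokine, was listed at 0 in both day 1 libraries and read 59.9 and 9.75 RPKM at day 3 (adjusted p = 0.0611 in limma). IL1R1, the interleukin 1 receptor, read 3.71 and 3.89 RPKM at day 1 and 28.0 and 20.4 at day 3. CCL5, a lymphocyte chemokine that interferon also induces, went the other way, at 135 and 143 RPKM against 19.7 and 44.7, with 0.0894 and 0.459 in the co-culture. CXCL1 and CXCL2 passed the filter through day 3 alone. Of the 18 other genes 8 were higher and 2 lower without overlap, against 17.7% and 21.6% of all genes measured on both days, and their median log2 difference was 0.46.

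No interferon or MHC class I gene passed the test. MX2, an antiviral GTPase, passed the filter through day 1 alone. Of the 15 other interferon response genes 7 were lower without overlap and 1 was higher, against 21.6% and 17.7% of all genes measured on both days. Their median log2 difference was -0.26, and with MX2 it was -0.60. Of 8 genes of MHC class I presentation 5 were lower and none higher, against 21.9% and 20.4% of all genes, with a median of -0.70 that ran from -1.23 to -0.74 with 1 library left out. The MHC class I genes had a median transcript length of 1470 bases, and the part of length in their values was not tested. B2M, the light chain of MHC class I, read 1537 and 902 RPKM at day 1 and 363 and 306 at day 3 (adjusted p = 0.0518 in limma). HLA-C, one of its heavy chains, read 687 and 499 RPKM against 181 and 326, and PSME2, a proteasome activator, read 392.3 and 371 against 163 and 169. Reads of HLA genes can be shared with other HLA genes, so HLA-C is uncertain. MX1, a relative of MX2, read 25.5 and 7.84 RPKM against 3.21 and 0.712, and IFITM1, which blocks viral entry, 663 and 714 against 127 and 333. GBP1, an interferon gamma target, was the gene of the interferon list that was higher without overlap, at 0.178 and 1.16 RPKM against 16.3 and 6.50. PLAAT4, a phospholipase first found as retinoid induced, fell by 4.82 ± 0.73. It read 64.5 and 51.6 RPKM at day 1 and was listed at 0 and at 3.33 at day 3, and it was not covered at day 2.

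**Figure D3:**
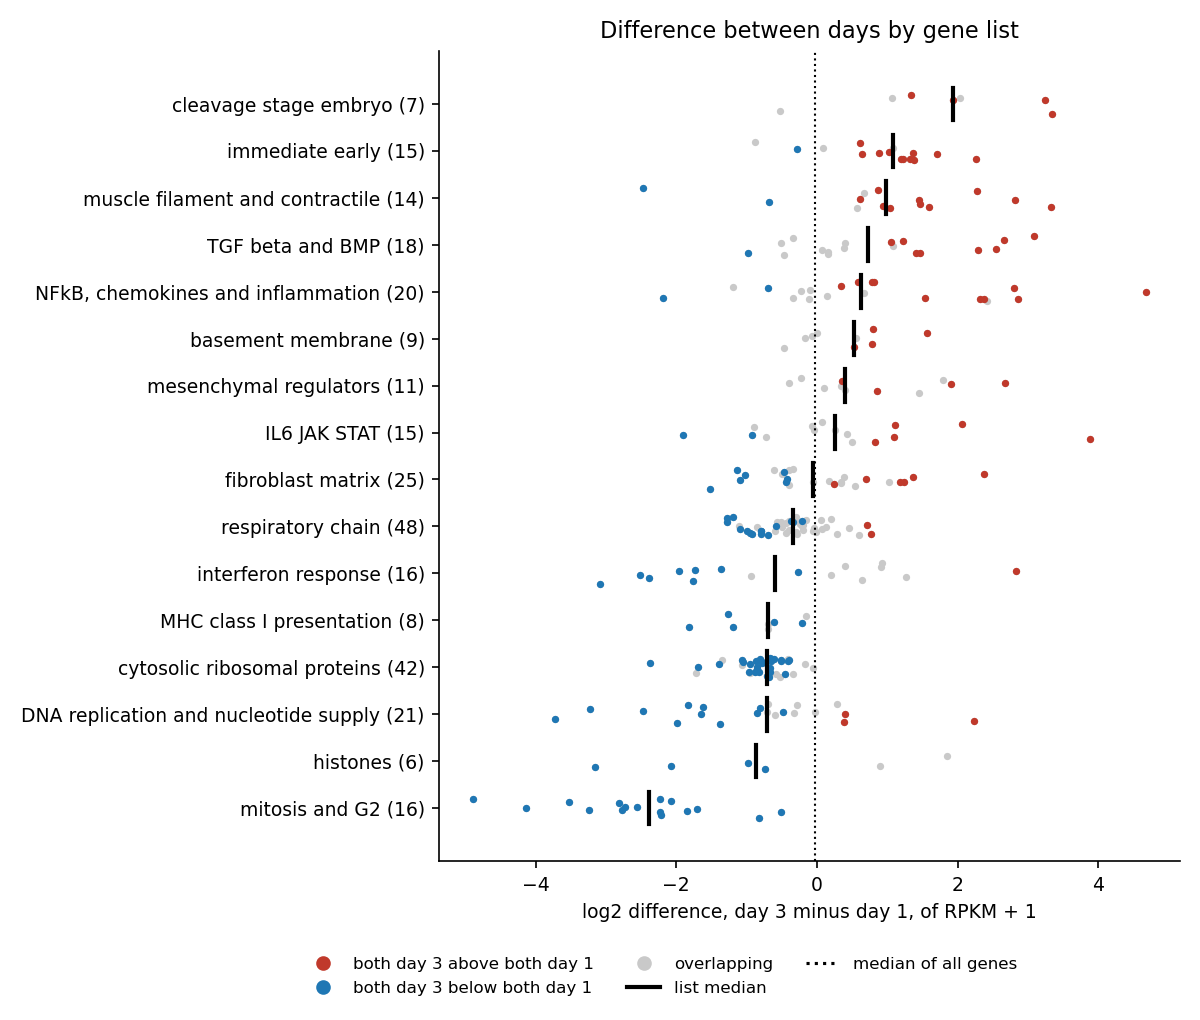
Log2 difference of day 3 minus day 1 (x axis, RPKM + 1) for each measured member of 16 gene lists, with the number of members in brackets; bars are list medians and the dotted line is the median of all genes. The 16 mitosis genes all lie to the left, and 11 of 15 immediate early genes have both day 3 libraries above both day 1 libraries; members that passed the filter through 1 day alone are drawn too, such as CCNA1, KDM4E and PRAMEF12 of the cleavage stage list, and no direction is read from that list.

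Interleukin 6 and its relatives signal through JAK kinases and STAT3, the route by which LIF maintains mouse embryonic stem cells. None of the 15 measured genes of the IL6 JAK STAT list passed the test; 5 were higher and 2 lower without overlap, against 20.4% and 21.9% of all genes, and the median log2 difference was 0.26. IL6 read 4.0 RPKM and was listed at 0 at day 1, read 14.2 and 25.3 at day 2 and 44.3 and 23.1 at day 3, and was at 5.58 and 5.36 in the co-culture. The adjusted p of IL6 was 0.062 in limma. JAK1, a kinase of its receptor, read 17.7 and 18.6 RPKM against 38.2 and 42.9. LIF read 17.5 and 14.3 RPKM against 33.0 and 25, below the co-culture at 91.1 and 102, and IL11 read 5.6 and 0.223 against 11.3 and 10.6. SOCS1, an inhibitor of JAK kinases, was lower, at 81.1 and 73.2 RPKM against 21.4 and 18.6, and read 0 and 2.43 in the co-culture.

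Immediate early genes, which serum and stress induce within minutes, were mostly higher at day 3. Of 15 measured genes 11 were higher without overlap, against 20.4% of all genes, and 1 was lower, with a median log2 difference of 1.08 that stayed between 0.63 and 1.56 with 1 library left out; none passed the test. JUN, an AP-1 subunit, read 15.4 and 18.4 RPKM at day 1, 37.4 and 31.4 at day 2, then 46.6 and 70.5 at day 3 (adjusted p = 0.0695 in limma). KLF6, a zinc finger factor, read 16.1 and 3.55 RPKM against 44.7 and 38.1. CCN1, a matricellular target of serum signalling, read 238 and 210 RPKM against 340 and 808, and DUSP1, a phosphatase of MAP kinases, 41.2 and 49.0 against 72.6 and 193. For CCN1 and DUSP1 the day 3 libraries differed by more than 2-fold, with replicate 2 the higher.

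Genes of the cleavage stage embryo, which are transcribed around the first activation of the human genome, were low at day 1. Of 24 fixed genes 13 were fully covered and 7 passed the filter, some of them only through their values at day 3, so no count over these 7 bears on direction. CCNA1, a cyclin of germ cells and early embryos, was listed at 0 in both day 1 libraries and both co-culture libraries and read 11.6 and 6.09 RPKM at day 3 (adjusted p = 0.0611 in limma). KHDC1L read 8.21 and 0.854 RPKM at day 1, 138 and 125 at day 2, then 15.1 and 107 at day 3, so both day 2 libraries exceeded both day 3 libraries. PRAMEF12 and KDM4E, a histone demethylase gene, were listed at 0 in both day 1 libraries. At day 3 PRAMEF12 read 1.33 and 5.22 RPKM and KDM4E 1.01 and 2.19, and at day 2 they read 9.99 and 2.96, and 7.43 and 8.46. KHDC1L and PRAMEF12 belong to families with near-identical copies and are uncertain. Replicate 2 was the higher at day 3 for KHDC1L, PRAMEF12 and KDM4E, and the lower for CCNA1. The other genes that passed the filter, RFPL4A, RFPL4B and ARGFX, overlapped between the days. RFPL4A read 5.28 and 0 RPKM at day 1 and 4.92 and 16.6 at day 3, and RFPL4B 2.45 and 5.66 against 5.39 and 14.9. ARGFX read 0.292 and 2.86 RPKM at day 1 and 0 and 1.40 at day 3.

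Of the pluripotency list 12 of 34 genes were covered and 4 were measured above the filter, none of which passed the test. CDH1, E-cadherin, was listed at 0 in both day 1 libraries and read 2.50 and 1.43 RPKM at day 3. It passed the filter through day 3 alone and so had to differ. MYC read 18.9 and 40.5 RPKM against 49.5 and 54.5, and KLF4 4.56 and 4.98 against 9.16 and 16. Both are immediate early genes of fibroblasts as well. KLF5, the other measured gene, overlapped between the days, at 10.2 and 6.84 RPKM against 4.38 and 10.6. Of the 3 genes measured on both days 2 were higher and 0 lower without overlap, against 17.7% and 21.6% of all such genes.

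**Figure D4:**
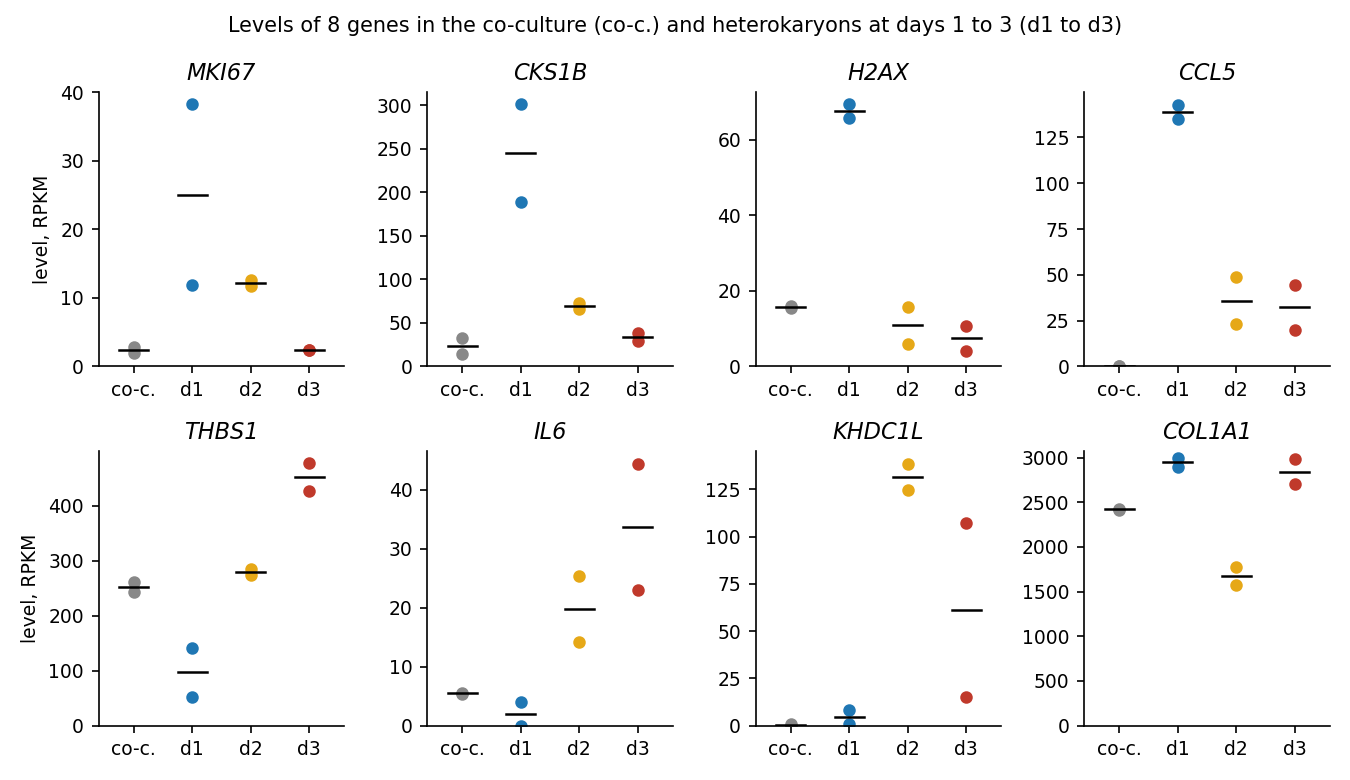
Levels of 8 genes (y axis, RPKM, from 0) in the co-culture and in heterokaryons at days 1, 2 and 3 (x axis); points are libraries and bars means of 2. MKI67, CKS1B, H2AX and CCL5 were highest at day 1, THBS1 and IL6 had their highest mean at day 3, KHDC1L at day 2, and COL1A1 overlapped between days 1 and 3.

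Ribosomal protein genes were lower at day 3, none of them past the test. All 42 measured genes had a log2 difference below 0, the median was -0.70, and 30 of the 42 were lower without overlap, against 21.9% of all genes. Their summed level was 59425 and 42569 RPKM at day 1 and 27172 and 33958 at day 3. RPSA, of the small subunit, read 2146 and 1504 RPKM against 985 and 849, and RPL17, of the large subunit, 1563 and 999.7 against 680.3 and 329. With upper quartile scaling the median was -0.30 and 7 of the 42 were lower without overlap, against 11.1% of all genes. Many of these genes have processed copies in the genome. Transcript length moved with the days: the median log2 difference was -0.24 in the shortest 616 genes and 0.14 in the longest 616, and the ribosomal genes had a median length of 1061 bases against 2911 over the genes tested. Without day 1 replicate 1 the ribosomal median was -0.47. The part of length in these values was not tested.

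Among markers of other cell types, the summed level of the epithelial list was higher at day 3, through 2 keratins. The summed level of its 11 measured genes was 180 and 157 RPKM at day 1 and 621 and 406 at day 3, with none called. Without KRT8 and KRT19 the 9 other genes summed to 47.2 and 70.9 RPKM at day 1 and 39.4 and 67.2 at day 3. Of the genes measured on both days 2 were higher and 2 lower without overlap, 22.2% each, near the 17.7% and 21.6% of all such genes. KRT8, a simple epithelial keratin with processed copies in the genome, read 46.6 and 28.2 RPKM at day 1 and 361 and 195 at day 3. Its day 2 libraries were far apart, at 0 and 233 RPKM. KRT19, another, read 86.6 and 58.4 RPKM at day 1 and 221 and 144 at day 3, with 5.94 and 6.29 in the co-culture. The part of other cell types in the differences above was not tested.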

How the data were processed

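PolyA RNA was sequenced from 12 samples. The deposited tables hold 1 value per RefSeq transcript accession, in a unit of the RPKM form that is inferred from the values; RPKM, FPKM and TPM share this form. Builds named in the submitters' processing notes are hg19 and mm10. An aligner was not given in the sources read. No interval that needs read counts is given.

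Each deposited table of RPKM values used here holds 10000 distinct values and no 0, and in accession order it stops at a library-specific point. Before that point a missing transcript was taken as 0, after it as not covered. Exact zeros can be failed estimates, and isoform values divide reads between similar transcripts. Accessions were joined to genes with the RefSeq table of GRCh38.p14, and 107 with an older annotation. Set aside were 103 genes close to 1 of 250 unnamed accessions and 32 genes with a short accession that is in none of the tables: of 149 short accessions that begin a longer listed one, 148 are absent, whereas 114 of 133 others of the same number range are listed.

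The test was limma 3.58.1 in R 4.3.3 (lmFit, eBayes with trend) on log2 of the deposited value plus 1, with genes at 1 or more in at least 2 of the 4 libraries, and Benjamini-Hochberg adjustment over all 2567 genes. Errors of log2 differences are SE with 2 libraries per group. Day 2 and co-culture shared the estimate of spread; libraries that do not cover a gene were missing for it, which touched 648 of the 3571 genes at day 2. Low genes' fold changes are understated on this scale. On simulated data with 2434 genes the fit recovered 66% of genes changed by 2 and 93% changed by 4 on the log2 scale. It made 11 false calls. The changed genes were drawn from those above the median abundance, so recovery of genes below it was not tested. Figures were drawn with matplotlib 3.10.9.

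Genes were named by rule: the 12 largest rises and falls among called genes in the upper 50% of abundance without overlap, filled up with the smallest unadjusted p, up to 4 members per list by adjusted p, members of the pluripotency, cleavage stage and IL6 JAK STAT lists, and the 8 genes highest at each day. The members and gene lists were chosen with earlier results of these data known. The replicate numbers only name samples. Unfused fibroblast replicate 3 lists no human accession and was not used. Mouse transcripts were not analysed here. Alternatives were another pseudocount (0.1, 5), filter, scaling, set of libraries, coverage rule, trend and block, and leaving out each library. Counts of list members measured on both days, with at least 1 library of each day at 1 RPKM, were added after seeing the data.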

Additional observations from a re-analysis of the deposited data

How the results depend on the processing

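The count of 17 called genes rested on the settings. It was 26 (11 higher) with a pseudocount of 5, 32 (17 higher) with a filter at a mean of 5, 66 (55 higher) with upper quartile scaling, 35 (19 higher) with the unfused fibroblasts in the estimate of spread, 24 with quantile normalization, 19 with genes covered in part (4 of them shared with the 17) and, chosen after seeing the data, 17 with the genes kept that have an absent accession. It was 0 in limma with a pseudocount of 0.1 (452 genes at an unadjusted p under 0.05; smallest adjusted p = 0.0612), without a filter (529; 0.0912), with only the 4 libraries compared (307; 0.273), without the trend (453; 0.0639) and, chosen after seeing the data, without the co-culture in the spread (391; 0.0702). With the replicate number as a block in the 4 libraries it was 0 (316; 0.178); the numbers only name samples, and the differences between replicates 1 and 2 at day 1 and at day 3 correlated at 0.0555 across genes. Leaving out 1 library gave 0 to 36 calls: 0 without day 1 replicate 1 (461 at an unadjusted p under 0.05), 2 without day 1 replicate 2, 18 without day 3 replicate 1 (4 higher, 3 shared with the 17) and 36 without day 3 replicate 2 (12 higher). Of the 17 genes, 10 passed with at least 1 library left out and 0 with each of the 4 left out; none changed direction under any alternative run. Over the alternatives the adjusted p of TOP2A ran from 0.0222 to 0.305 and its log2 difference from -3.56 to -2.39. COL1A1 turned to 0.35 with upper quartile scaling, 0.26 with quantile normalization and 0.0154 without day 3 replicate 2, the highest of the values with 1 library left out (from -0.13). The upper quartile value is the common shift: relative to the median of all genes it was 0.03, against -0.03 as reported; the cause of the others was not tested. Read totals are unknown, so the limit set by depth cannot be given.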

Other observations

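Other gene groups had lower medians without a called gene. Of 48 measured genes of the respiratory chain 15 were lower and 2 higher without overlap, against 21.9% and 20.4% of all genes. Their median log2 difference relative to that of all genes was -0.31, and -0.29 with upper quartile scaling. Of 27 proteasome genes 10 were lower and 1 higher, with a relative median of -0.37, and -0.32 with that scaling. With that scaling 5 of the 48 respiratory chain genes were lower and 7 higher without overlap. Of the 27 proteasome genes 5 were lower and 5 higher with it, against 11.1% and 32.1% of all genes for both lists. The median transcript length was 1082 bases in the respiratory chain list and 1538 in the proteasome list, against 2911 over the genes tested. The part of length in these values was not tested. Of 25 measured genes of growth factors and their receptors 9 were higher and 5 lower without overlap, against 20.4% and 21.9% of all genes. IGFBP5 read 207 and 308 RPKM at day 1 and 936 and 513 at day 3, whereas IGFBP6, a binding protein of the same family, read 881 and 456 against 152 and 270. Neither passed the test (adjusted p of 0.0776 and 0.0781 in limma). CDH11, a cadherin of mesenchymal cells, read 1.31 and 6.92 RPKM at day 1, 15.6 and 18.7 at day 2, then 32.2 and 21.2 at day 3, near the co-culture at 48.3 and 30.9 (adjusted p = 0.0778 in limma). Among the most abundant genes, LGALS1, galectin 1, read 3512 and 2517 RPKM at day 1 and 713 and 1774 at day 3. TIMP1, an inhibitor of matrix proteases, read 3482 and 2909 against 1150.1 and 2725. Neither passed the test (adjusted p of 0.109 and 0.246 in limma). EEF1A1, RPS2 and RPL37A were also lower without overlap, and GAPDH, COL1A1 and FTH1 overlapped. FTL, with the highest mean on both days, was higher without overlap, at 13990 and 9870 RPKM against 14932.5 and 22618 (adjusted p = 0.243 in limma).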
